A study of Mus musculus with 4 samples.

Results

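The genes described here encode the proteins of the basement membrane and the integrins that bind extracellular matrix, and were followed through heart muscle of mice with and without a voltage indicator transgene. They were chosen by name: 20 basement membrane chains (perlecan, 2 nidogens, agrin, 6 type IV collagen chains and 10 laminin chains), 17 integrin subunits (11 alpha and 6 beta) and 2 cytoplasmic partners of beta integrins. All 39 names were found among the 38355 genes of the count table, and 38 of the 39 passed the filter on low counts. Lama1 was the exception, with 3 counts in WT 1, 2 in WT 2, 5 in TG 1 and 1 in TG 2. No measured value entered the choice of members, although results of these data were known when they were listed.

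The free wall of the left ventricle of 4 untreated mice gave total RNA that was sequenced as 1 library per mouse, to ask whether the indicator VSFP2.3 is toxic to the heart. VSFP2.3 is a fluorescent protein that reports membrane voltage. The libraries labelled WT 1 and WT 2 came from wild-type mice and those labelled TG 1 and TG 2 from mice with the transgene. WT 1 and TG 1 were 35-week males, WT 2 and TG 2 were 19-week females, and all 4 mice had the same parents. The series title speaks of targeting to cardiomyocytes, but no source used here gives the promoter or the strain. The transgene itself was not analysed here, so no targeted gene checks the genotype labels.

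A basement membrane is a thin sheet of matrix that surrounds each cardiomyocyte and underlies the endothelium of each vessel. Laminins, trimers of an alpha, a beta and a gamma chain, assemble on the cell surface, and type IV collagen, a trimer of alpha chains, forms a second network that nidogens and the heparan sulfate proteoglycans perlecan and agrin link to the first. Integrins are dimers of an alpha and a beta subunit that bind these networks outside the cell and couple them to the cytoskeleton inside it, and in muscle the alpha 7 beta 1 integrin is a main laminin receptor. Loss of the laminin alpha 2 chain causes a muscular dystrophy.

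Promoter windows are printed for the 4 members whose data bear most on them: Hspg2 and Lamb1, the members with a window whose p was smallest in the crossed comparison described below, and Col4a1 and Col4a2, which lie head to head and can be read together. RefSeq windows of build GRCm38.p6, from 250 bases before to 50 bases after a gene start, were found for 27 of the 39 members. The windows run 5′ to 3′ on the gene's strand: Hspg2 at chr4:137468553-137468852 (plus strand), Lamb1 at chr12:31265043-31265342 (plus), Col4a1 at chr8:11312777-11313076 (minus) and Col4a2 at chr8:11312555-11312854 (plus). In Hspg2 and Lamb1, capitals mark the GC box GGGCGG or its reverse complement CCGCCC. In the collagen pair, capitals mark the 78 bases that both windows share, chr8:11312777-11312854, read from opposite strands.
Hspg2: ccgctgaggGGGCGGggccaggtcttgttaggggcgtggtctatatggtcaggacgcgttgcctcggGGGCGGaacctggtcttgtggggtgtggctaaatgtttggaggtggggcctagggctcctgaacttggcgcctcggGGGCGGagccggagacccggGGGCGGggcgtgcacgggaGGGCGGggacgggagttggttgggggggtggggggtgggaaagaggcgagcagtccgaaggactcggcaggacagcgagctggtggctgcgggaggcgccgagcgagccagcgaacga
Lamb1: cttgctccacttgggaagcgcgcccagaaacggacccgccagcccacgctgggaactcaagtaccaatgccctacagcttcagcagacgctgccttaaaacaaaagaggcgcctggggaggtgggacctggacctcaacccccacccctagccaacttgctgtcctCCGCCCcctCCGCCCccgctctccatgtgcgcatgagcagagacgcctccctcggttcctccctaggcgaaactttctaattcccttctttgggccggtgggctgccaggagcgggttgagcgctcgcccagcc
Col4a1: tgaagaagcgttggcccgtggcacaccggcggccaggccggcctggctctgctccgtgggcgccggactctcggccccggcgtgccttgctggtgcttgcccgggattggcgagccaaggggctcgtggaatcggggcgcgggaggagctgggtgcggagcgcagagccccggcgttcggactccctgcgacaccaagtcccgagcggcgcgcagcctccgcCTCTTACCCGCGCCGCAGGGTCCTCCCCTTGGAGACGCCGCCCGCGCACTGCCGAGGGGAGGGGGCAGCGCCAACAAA
Col4a2: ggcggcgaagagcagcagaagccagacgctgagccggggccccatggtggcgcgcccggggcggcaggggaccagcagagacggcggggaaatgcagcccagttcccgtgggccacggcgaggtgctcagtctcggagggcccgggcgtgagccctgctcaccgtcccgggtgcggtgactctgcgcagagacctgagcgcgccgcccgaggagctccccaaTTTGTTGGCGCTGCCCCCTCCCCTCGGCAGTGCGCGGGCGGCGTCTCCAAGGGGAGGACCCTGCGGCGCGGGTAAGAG
The Hspg2 window held 5 GC boxes and the Lamb1 window 2. A GC box on either strand was found in 19 of the 32 windows of members, which belong to 17 genes, and in 35.7% of all 32851 windows of the table. The CCAAT box, searched as CCAAT or ATTGG, was in 7 of the 32 and in 37.4% of all. The TATA box, searched as TATAAA or TTTATA, was in 0 of the 32 and in 13.6% of all. None of these motifs contains another. These are counts of letters in a window and describe no binding.

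The libraries held 14158440 to 16762713 counts, and 18334 to 19001 genes had at least 1 count. Levels are given as CPM (counts-per-million units), with library sizes scaled by trimmed means (TMM). A count of 0 allows up to 3 counts, or 0.182 to 0.213 CPM, which covers counting error only. The members together took 0.514% of the counts in WT 1, 0.607% in WT 2, 0.589% in TG 1 and 0.545% in TG 2. In all, 28 members had a mean of at least 10 CPM and 11 a lower one. The libraries do not divide by genotype: over all 14189 tested genes, genotype held 12.8% of the variance of log2 CPM between libraries, the sex and age pair 23.9%, and the remaining 63.3% separated WT 2 and TG 1 from the other 2 libraries. For the members the same shares were 12.1%, 37.4% and 50.5%. Large differences weigh most in such shares. The laminin chain Lamc3, with 5 to 34 counts, had a log2 ratio of males over females of 1.91, and the next largest in size was -0.73, for Itga10. The 37.4% is thus not read as a closer tie of the members to sex and age. Males and females did not overlap for 8 of 38 members, against 31.5% of all tested genes. The division behind the remaining share crosses both genotype and pair, is called the crossed split here, and was known when its test was chosen. For the long non-coding RNA Yam1, the log2 ratio of TG 2 over WT 2 was -7.97, which alone does not tell which of these libraries stood apart.

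**Figure D1:**
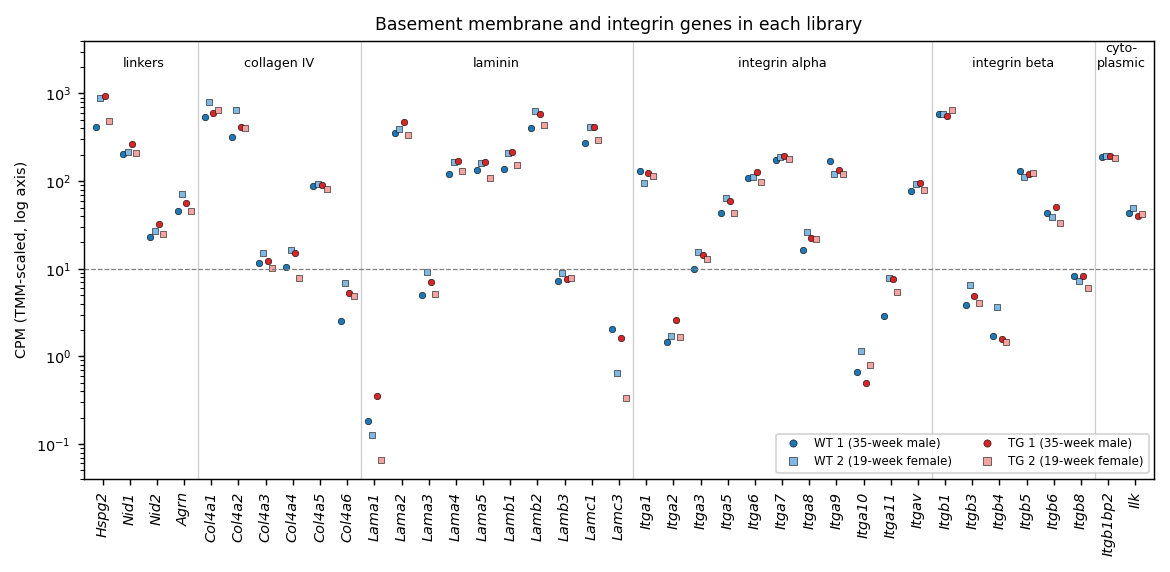
Level of each of the 39 members in each library, in TMM-scaled CPM on a log axis, with 1 point per library and the dashed line at 10 CPM. Circles are the 35-week males and squares the 19-week females; for Hspg2, Lamb2 and Lamc1 the points of WT 2 and TG 1 lie above those of WT 1 and TG 2, and Lama1 lies lowest.

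Per length, a few chains made up most of the basement membrane and integrin messages of the ventricle, and in each family but the integrin alpha subunits the leading chain was the same in all 4 libraries. Levels between genes are compared as CPM per kilobase of exon, the union of the exons in GENCODE vM21. Itgb1, the common beta subunit of the matrix-binding integrins, stood highest at a mean of 146 CPM per kb. It was followed by Itgb1bp2 (melusin, a muscle protein that binds the beta 1 tail) at 106, Col4a1 at 86.9, Lamb2 at 84.4, Col4a2 at 67.4, Hspg2 at 47.7 and Lamc1 at 42.4 CPM per kb.

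Within type IV collagen, Col4a1 made up 48.2 to 53.9% of the CPM per kb of the 6 chains over the libraries, and Col4a2 35.4 to 43.8%. Col4a1 and Col4a2 encode the chains of the ubiquitous network. Col4a5 held 6.25 to 9.66%, and Col4a3, Col4a4 and Col4a6 were each below 1% in every library. The ratio of Col4a1 to Col4a2 per kb was 1.503 in WT 1, 1.10 in WT 2, 1.27 in TG 1 and 1.45 in TG 2.

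Among the laminin alpha chains, Lama2, the chain of muscle, held 45.8 to 49.7%, while the vascular chains Lama4 and Lama5 held 22.6 to 26.3% and 22.8 to 26.7%. Lama4 and Lama5 thus overlapped, and their order turned with the length used: per kilobase of the longest transcript, Lama4 held 31.1% and Lama5 16.0% on average. Lama3 held 1.07 to 1.60%, and Lama1, typical of the early embryo, 0.0166 to 0.0635% on a few counts. Lamb2 held 80.7 to 82.0% of the beta chains, Lamb1 16.9 to 18.4% and Lamb3, an epithelial chain, 0.974 to 1.35%. Lamc1 held 98.98 to 99.85% of the 2 gamma chains measured here.

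Among integrin alpha subunits, Itga7, the laminin receptor of muscle, led with 25.8 to 28.5%, apart from WT 1, where Itga9 (which binds tenascin-C) reached 26.3% against 25.8% for Itga7. Itga9 held 18.04 to 20.42% in the other 3 libraries. Itga6, a laminin receptor of endothelium and epithelium, held 14.0 to 15.7%, and Itga5, the fibronectin receptor, 10.6 to 15.0%. Itgb1 held 76.2 to 79.5% of the beta subunits and Itgb5, a partner of alpha V, 17.1 to 19.5%. Per longest transcript Itga7 stood at 34.3%, Itga6 at 19.3% and Itga9 at 14.4% on average.

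**Figure D2:**
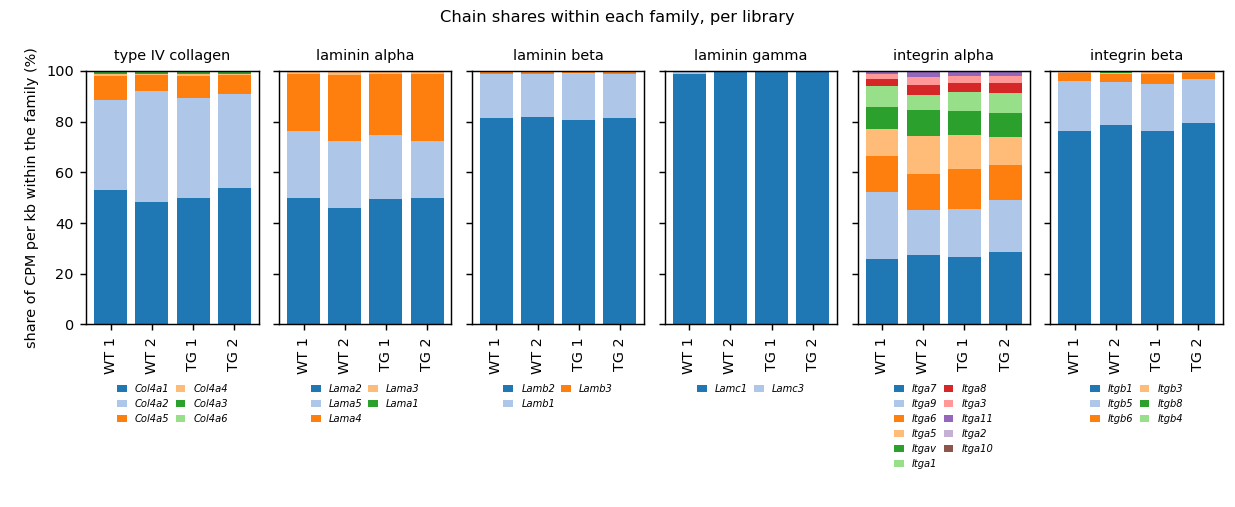
Share of each chain in the summed CPM per kb of exon of its family, in percent, as 1 stacked bar per library (WT 1, WT 2, TG 1, TG 2) for 6 families. The chain at the bottom, which has the highest mean share, is Col4a1, Lama2, Lamb2, Lamc1, Itga7 and Itgb1 in turn, and Lamb2 lies between 80.7 and 82.0% in every library.

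TG and WT hearts were compared first, since this is the study's stated question. No member passed the test: the quasi-likelihood test of edgeR, adjusted by Benjamini-Hochberg, called 0 of 38 members and 0 of 14189 genes (0%). At an unadjusted p below 0.05, edgeR found 0 members and 99 genes, limma-voom called 0 genes (95 below 0.05) and DESeq2 called 3 genes, none of them a member. Members were evenly divided, with 19 higher and 19 lower in TG and a median log2 fold change of 0.00, against -0.01 over all genes. The members' range was -0.82 to 0.43. Since 63.3% of the variance lies in a split that the test counts as spread within genotypes, the absence of calls does not show that the genotypes are alike. With 2 mice per genotype, p-values measure the spread among these 4 animals.

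The members of smallest p in TG against WT were these, each with an adjusted p of 1.00. Itgb4, a subunit of epithelial hemidesmosomes, was counted at 1.70 CPM in WT 1, 3.64 in WT 2, 1.56 in TG 1 and 1.46 in TG 2, with a log2 fold change of -0.82 ± 0.50 (SE). WT 2 alone stood high, and without it the value was -0.17. Ilk, the integrin-linked pseudokinase, was at 43.1 CPM in WT 1, 49.5 in WT 2, 39.7 in TG 1 and 41.9 in TG 2 (-0.18 ± 0.15). The exons of Ilk overlap Taf10 on the opposite strand over 76.8% of their length, and whether the counting used strand is not given in the sources used here, so its level is uncertain. Col4a3, a chain best known from the glomerulus, was at 11.6 CPM in WT 1, 15.0 in WT 2, 12.4 in TG 1 and 10.1 in TG 2 (-0.24 ± 0.22), where WT 2 was the highest and TG 2 the lowest library.

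On the higher side stood both nidogens and the collagen receptor subunit Itga2. Nid1 was at 202 CPM in WT 1, 213 in WT 2, 269 in TG 1 and 208 in TG 2 (0.20 ± 0.18). Nid2 was at 23.0, 26.9, 32.6 and 24.7 CPM in the same order (0.20 ± 0.20). Itga2 was at 1.46, 1.73, 2.63 and 1.66 CPM (0.43 ± 0.42). In all 3, TG 1 was the highest library and TG 2 lay among the WT values; without TG 1 the log2 fold changes were 0.006 for Nid1, -0.014 for Nid2 and 0.062 for Itga2. The 2 libraries of one genotype did not overlap those of the other for 2 of 38 members, Ilk and Itgb4, both lower in TG, where 21% of all tested genes did not overlap.

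By role, type IV collagens were lower in TG in 5 of 6 (median log2 fold change -0.16), and of the 4 linkers agrin was lower and perlecan and the nidogens were higher. Laminin chains were lower in TG in 2 of 4 tested alpha chains (median -0.014), 2 of 3 beta chains (-0.006) and 1 of 2 gamma chains (-0.21), and both cytoplasmic partners were lower (-0.10). Integrin alpha subunits were higher in 8 of 11 (median 0.05) and beta subunits in 3 of 6 (-0.06). No direction is read from these counts: without WT 1 the median over members was -0.20 and without TG 1 -0.16, while without WT 2 it was 0.17 and without TG 2 0.13. Just 7 of 38 members kept the sign of their TG over WT value whichever library was left out.

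Within the sex- and age-matched pairs the picture differed. In the males 29 of 38 members had higher values in TG, with a median log2 ratio of 0.31, and in the females 4 of 38, with a median of -0.29. Over all tested genes, 49.5% were higher in TG in the males and 48.6% in the females. Higher in males and lower in females held for 29 members (32.8% of all tested genes), the reverse for 4 (Itga1, Itga9, Itgb1 and Itgb5), and lower in both for 5 (Lamc3, Itga10, Itgb4, Itgb8 and Ilk). Both pairs had the same sign in 13.2% of members and in 35.3% of all tested genes. None of the 38 was higher in TG in both pairs. The widest case was Hspg2, with a log2 ratio of TG over WT of 1.16 in the males and -0.89 in the females. Itga11, a fibroblast receptor for fibrillar collagen, had 1.37 and -0.52, and Col4a4 0.53 and -1.05. Each ratio within a pair compares 1 mouse with 1 mouse and has no replicate check.

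**Figure D3:**
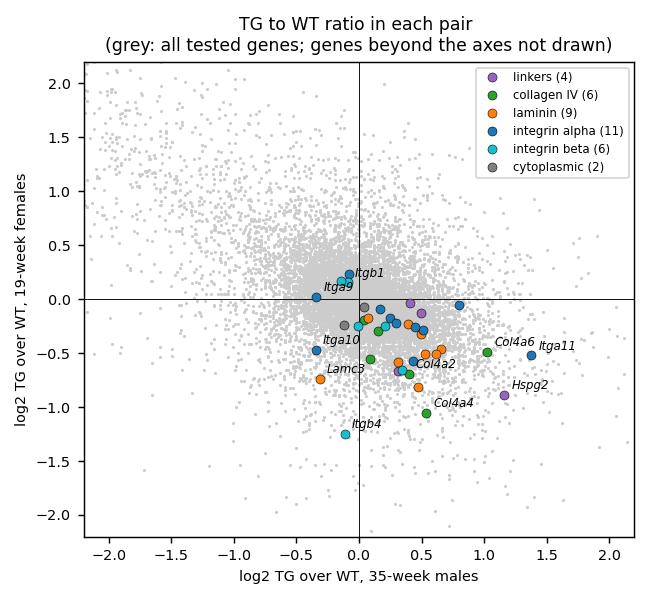
Log2 ratio of TG over WT in the 35-week males (x axis) and in the 19-week females (y axis), with the 38 tested members coloured by role and all tested genes in grey (361 genes lie beyond the axes). The lower right field, higher in TG males and lower in TG females, holds 29 members, with Hspg2 at 1.16 and -0.89.

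The difference between the pairs was tested across the crossed split, as the ratio of WT 2 with TG 1 to WT 1 with TG 2, called the crossed ratio below. It is the interaction of genotype and pair with no other term in the model. Its log2 value is near the average of the TG over WT log2 ratio in males and that in females with its sign turned. It is thus smaller than the full difference between the pairs: for Hspg2, 1.16 and -0.89 went with 1.02. Differences by genotype or pair are counted as spread in this test and, where large, can also shift the fitted value. Perlecan was the 1 member of 38 that passed, where 2.72% of all tested genes did (386, of which 50 were higher and 336 lower in WT 2 and TG 1). Of the members, 33 had higher and 5 lower values in WT 2 and TG 1, with a median log2 ratio of 0.33. Over all genes 50.9% were higher and the median was 0.005. An unadjusted p below 0.05 was found for 14 members and for 2304 genes. The values of the groups did not overlap for 28 members (47.5% of all genes), of which 26 were higher in WT 2 and TG 1 (23% of all genes) and 2, Itgb1 and Itgb5, lower.

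Perlecan led the proteins that link the networks. Hspg2 (ENSMUSG00000028763, chromosome 4, 137468769 to 137570630 in mm10), which encodes perlecan, counted 416 CPM in WT 1, 897 in WT 2, 930 in TG 1 and 486 in TG 2. WT 2 and TG 1 stood together and well above the other pair of libraries. The log2 ratio was 1.02 ± 0.13 (SE), or 2.03-fold, with adjusted p = 0.0205 in the Benjamini-Hochberg adjusted quasi-likelihood test of edgeR. WT hearts were at 657 ± 340 CPM and TG hearts at 708 ± 314 (SD, n = 2), so the genotypes overlapped. Limma-voom and DESeq2 also called Hspg2, at adjusted p-values of 0.0242 and 1.53e-08. Without WT 1 the edgeR value was 0.91 with an adjusted p of 0.227 and without TG 2 1.13 with 0.105, so the call rests on these libraries. Without WT 2 or TG 1 it held, at 1.04 (adjusted p = 0.0309) and 0.99 (0.0318).

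The other linkers had smaller differences, and none passed. Agrn, which encodes the proteoglycan agrin, was at 45.6 CPM in WT 1, 71.7 in WT 2, 56.6 in TG 1 and 45.0 in TG 2, with a log2 ratio of 0.50 ± 0.14 (adjusted p = 0.165). The nidogens, whose values are given above, were at 0.23 ± 0.14 for Nid1 and 0.32 ± 0.15 for Nid2. Hspg2 was thus not moving in step with Nid1: the ratio of Hspg2 to Nid1 per kb was 0.999 in WT 1, 2.05 in WT 2, 1.68 in TG 1 and 1.13 in TG 2. The ratio of Nid1 to Nid2 kept between 5.89 and 6.54.

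All 6 type IV collagen chains had higher values in WT 2 and TG 1, with a median log2 ratio of 0.45, and none passed the test. Col4a2 was at 318 CPM in WT 1, 647 in WT 2, 418 in TG 1 and 401 in TG 2 (0.57 ± 0.23, adjusted p = 0.308). WT 2 alone was high, and TG 1 lay just above TG 2. Col4a1, its partner on the other side of the shared promoter, was at 539 in WT 1, 803 in WT 2, 598 in TG 1 and 656 in TG 2 (0.23 ± 0.18), with the groups overlapping. The chromosome 8 pair (Col4a1 at 11198423 to 11312826, Col4a2 at 11312805 to 11449287) overlaps by 22 exonic bases. Their highest library was the same, WT 2, and so was their lowest, WT 1.

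Col4a3 and Col4a4 form a second such pair on chromosome 1, and with Col4a5 they make a network typical of the kidney and other epithelia. Col4a4 was at 10.5 CPM in WT 1, 16.2 in WT 2, 15.3 in TG 1 and 7.76 in TG 2 (0.78 ± 0.20, adjusted p = 0.121). Col4a3, with the values above, was at 0.33 ± 0.18. Col4a5 was nearly level, at 88.1 in WT 1, 93.7 in WT 2, 90.8 in TG 1 and 81.7 in TG 2 (0.12 ± 0.11). Col4a6 was counted at 2.55 to 6.84 CPM (0.73 ± 0.35).

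The most abundant laminin chains also had higher values in WT 2 and TG 1. Lamc1 (chromosome 1, 153218922 to 153332786), the gamma chain shared by most laminins, was at 273 CPM in WT 1, 417 in WT 2, 418 in TG 1 and 293 in TG 2. Its log2 ratio was 0.56 ± 0.11 with an adjusted p of 0.0622. Lamb1 (chromosome 12, 31265234 to 31329644) was at 138, 209, 217 and 151 CPM in the same order (0.56 ± 0.11, adjusted p = 0.0698). These chains showed WT 2 and TG 1 close together and above the other 2 libraries. Lamb2 (chromosome 9, 108479736 to 108490530), the beta chain of muscle and vessel basement membranes, was at 404, 624, 584 and 440 CPM (0.52 ± 0.12, adjusted p = 0.0884). These 3 missed the threshold with edgeR and passed it with DESeq2, at adjusted p-values of 0.00423 for Lamc1, 0.00958 for Lamb1 and 0.0143 for Lamb2. The ratio of Lamb2 to Lamb1 per kb stayed between 4.39 and 4.86.

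The 4 tested alpha chains had log2 ratios of 0.32 to 0.67, and none passed. Lama4, found in vessel walls and around cardiomyocytes, was at 120 CPM in WT 1, 164 in WT 2, 169 in TG 1 and 131 in TG 2 (0.41 ± 0.11, adjusted p = 0.154). Lama5, a chain of mature endothelium, was at 133, 160, 165 and 107 CPM in the same order (0.44 ± 0.14, adjusted p = 0.205). For both, the 2 pairs of libraries did not overlap. Lama2, which anchors the muscle fibre, was at 357 in WT 1, 394 in WT 2, 469 in TG 1 and 336 in TG 2 (0.32 ± 0.13, adjusted p = 0.308). Lama3, at 5.04 to 9.07 CPM, had 0.67 ± 0.21 (adjusted p = 0.206).

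Lamb3 was at 7.29 to 8.94 CPM and Lamc3 at 0.332 to 2.07 CPM, with crossed log2 ratios of 0.13 ± 0.18 and -0.12 ± 0.83. Lamc3 was the 1 matrix chain of 19 tested that was not higher in WT 2 and TG 1, and it followed the pair instead, as described below.

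Integrin subunits had higher values in WT 2 and TG 1 in 13 of 17, with a median log2 ratio of 0.23 and none past the test. Among receptors for fibronectin and vitronectin, Itga5 was at 43.4 CPM in WT 1, 63.8 in WT 2, 58.7 in TG 1 and 42.8 in TG 2 (0.51 ± 0.11, adjusted p = 0.0819). Itgav, the alpha V subunit, was at 77.5, 92.6, 95.1 and 79.3 CPM (0.26 ± 0.10, adjusted p = 0.295). Itga8, a nephronectin receptor, was at 16.5, 25.9, 22.5 and 21.7 CPM (0.34 ± 0.18). In these 3, WT 2 and TG 1 again lay above WT 1 and TG 2, for Itga8 by a small margin over TG 2.

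Among the laminin receptors, Itga7 and Itga6 had small crossed differences and Itga3 a larger one. Itga7 was at 174 CPM in WT 1, 190 in WT 2, 195 in TG 1 and 179 in TG 2, a log2 ratio of 0.13 ± 0.11. Itga6 was at 108, 111, 128 and 97.8 CPM (0.22 ± 0.13), and Itga3, whose partner is beta 1, at 10.02, 15.7, 14.4 and 12.8 CPM (0.40 ± 0.18). The groups did not overlap for any of the 3, and no adjusted p among them was below 0.363. The ratio of Itga7 to Itga6 per kb lay between 1.70 and 2.04.

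Itga1, Itga9, Itgb1 and Itgb5 had lower values in WT 2 and TG 1. Itgb1 was at 591 CPM in WT 1, 582 in WT 2, 555 in TG 1 and 650 in TG 2 (-0.13 ± 0.12). Itgb5 was at 132, 110, 119 and 124 CPM (-0.16 ± 0.11). For these beta subunits the groups did not overlap, but the differences were close to their standard errors. Itga1, a collagen receptor and the member with the longest exonic sequence, was at 130, 96.5, 123 and 114 CPM (-0.15 ± 0.16). Itga9 was at 168 in WT 1, 120 in WT 2, 132 in TG 1 and 122 in TG 2 (-0.20 ± 0.17). WT 1 was the highest library for Itga9 and the others lay together.

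Itgb6, an epithelial partner of alpha V, was at 43.6 CPM in WT 1, 39.5 in WT 2, 50.5 in TG 1 and 33.2 in TG 2 (0.23 ± 0.19). Both males were above both females. The partners inside the cell hardly differed: Itgb1bp2 was at 189, 195, 195 and 185 CPM (0.06 ± 0.10), and Ilk, with the values above, was at 0.07 ± 0.14. The low integrins were Itga2, Itga10, Itga11, Itgb3, Itgb4 and Itgb8, with library values from 0.497 to 8.20 CPM. Itga11 had the largest crossed ratio among them (0.90 ± 0.32, adjusted p = 0.247), and WT 1, at 2.85 CPM, was its lowest library. Itga10 shares 33.5% of its exonic length with Gm42957 on the same strand, so its level of 0.497 to 1.15 CPM is uncertain.

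**Figure D4:**
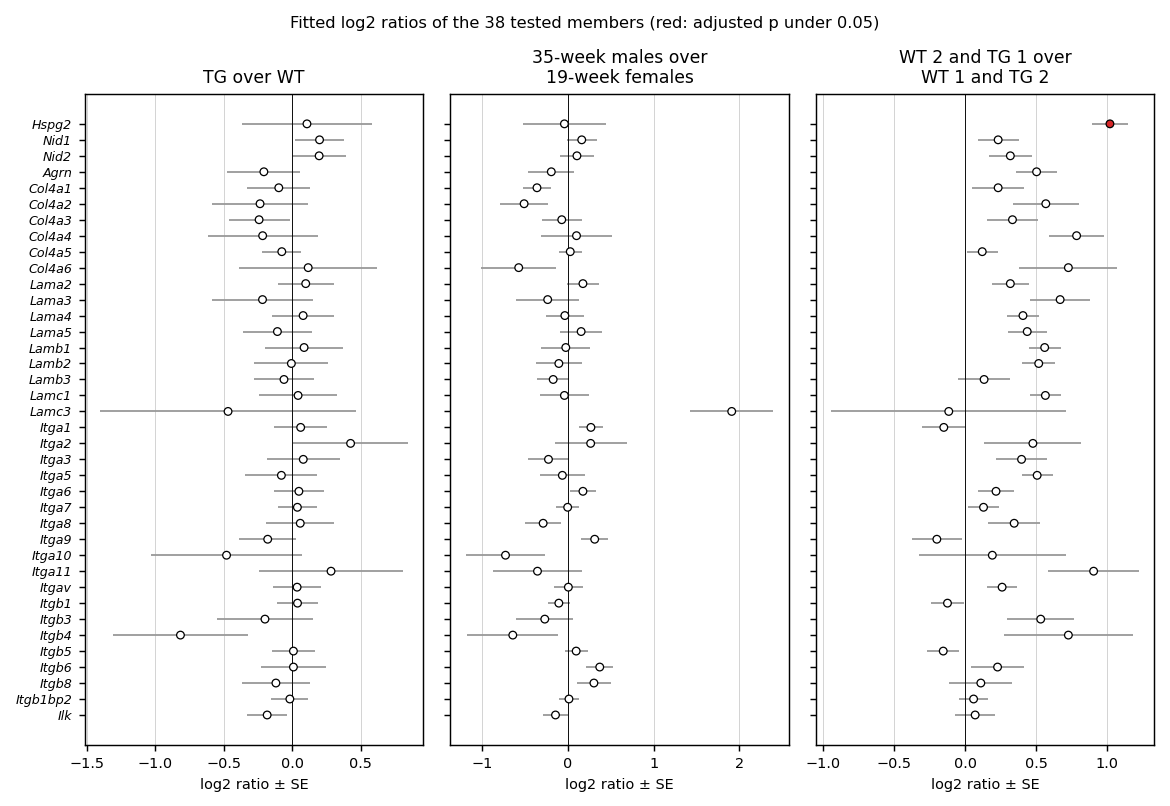
Fitted log2 ratio with its standard error (bars) for each of the 38 tested members in TG over WT, in 35-week males over 19-week females, and for the crossed ratio (WT 2 with TG 1, over WT 1 with TG 2). Filled red marks an adjusted p below 0.05, which Hspg2 alone has, at 1.02 in the right panel; the members spread around 0 on the left and lie mostly above 0 on the right.

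Males and females were compared as the labels' other difference between these libraries, in which sex and age cannot be told apart. In the same edgeR test, adjusted by Benjamini-Hochberg, 0 of 38 members passed, and 4 of all tested genes (0.0282%) did. An unadjusted p below 0.05 was found for 1 member and 513 genes, and DESeq2 and limma-voom called 0 members among 34 and 4 genes. Members were higher in males in 16 and lower in 22, with a median log2 ratio of -0.04. The 1 member, Lamc3, encodes a laminin gamma chain of low level. It had 34 counts in WT 1 and 23 in TG 1, but 10 in WT 2 and 5 in TG 2, a log2 ratio of 1.91 ± 0.49 with an adjusted p of 0.999 in edgeR. Both males lay above both females. Lamc3 is named here after its values were seen, and 6.27% of its exonic length overlaps an antisense gene.

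The sexes did not overlap for 8 of 38 members, where 31.5% of all tested genes did not. These were Lamc3, Itga1, Itga9, Itgb6 and Itgb8, higher in males, and Col4a1, Lamb3 and Itga10, lower in males. Col4a1 had a log2 ratio of males over females of -0.36 ± 0.16 and Itgb6 of 0.37 ± 0.16, with unadjusted p-values of 0.0747 and 0.0650. The perlecan gene was at -0.04 ± 0.49.

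Exonic length moved with the crossed ratio and, somewhat less, with TG over WT (Spearman's rho 0.230 over the same protein-coding genes). Over 12827 protein-coding genes, Spearman's rho between exonic length and the crossed log2 ratio was 0.285, as a description across genes of the same 4 libraries. Genes of at least 5000 bp numbered 5777, had a median of 0.08 and were higher in WT 2 and TG 1 in 62.6%, where shorter genes had a median of -0.05. Of the 38 members 33 were that long, and their median length was 7250 bp against 4597 over the genes. With a running median over genes of like length subtracted, a step added after the data were seen, Hspg2 stood at 0.82, the members' median at 0.24, and 32 of 38 were above 0.

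**Figure D5:**
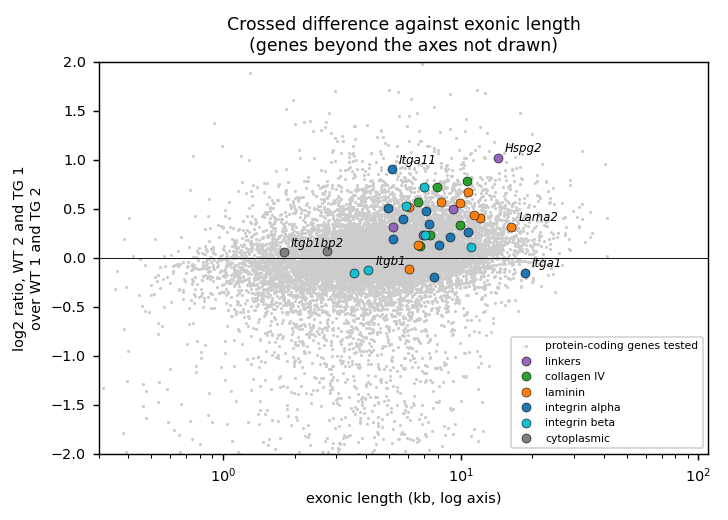
Crossed log2 ratio (WT 2 with TG 1, over WT 1 with TG 2) against exonic length in kb (log axis), with members coloured by role and protein-coding genes in grey (295 genes lie beyond the axes). Most members lie above 0 and to the right, with Hspg2 at 1.02 and the longest member, Itga1, at -0.15.

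Genes that work with the members were read from lists of names. In TG against WT, none of the 80 tested genes of the 5 lists passed edgeR's test. The median log2 fold changes were 0.03 for 20 focal adhesion and integrin-linked genes, -0.06 for 20 other basement membrane genes, -0.14 for 14 integrin ligands outside the basement membrane, -0.02 for 17 collagen and laminin processing genes and -0.25 for 9 leukocyte and platelet integrins. Thbs1, the matrix regulator thrombospondin 1, was at 23.2 CPM in WT 1, 29.2 in WT 2, 14.9 in TG 1 and 18.2 in TG 2 (-0.66 ± 0.20, unadjusted p = 0.0209, adjusted p = 1.00). Parva, a focal adhesion protein that binds Ilk, was at 54.7, 48.9, 64.8 and 60.4 CPM (0.27 ± 0.14, adjusted p = 1.00). In both, which were named for their small p, the 2 TG libraries lay on the same side of the 2 WT libraries. The same held, in either direction, for 21% of all tested genes. The other genes of smallest p in their lists were Nexn (0.24 ± 0.19), Ntn4 (0.61 ± 0.28), Fbln1 (0.41 ± 0.20), Vtn (-0.14 ± 0.14), Plod2 (-0.15 ± 0.13), Mia3 (0.14 ± 0.15), Itgad (-0.64 ± 0.54) and Itgae (-0.80 ± 1.03), given as log2 fold changes.

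In the crossed split the lists divided. Focal adhesion genes were higher in WT 2 and TG 1 in 15 of 20 (median 0.22), other basement membrane genes in 16 of 20 (median 0.30), and none of either list passed. The muscle filamin Flnc was at 654 CPM in WT 1, 1131 in WT 2, 1152 in TG 1 and 752 in TG 2, with a log2 ratio of 0.70 ± 0.13 and an adjusted p of 0.0501. Parvb (0.65 ± 0.14, adjusted p = 0.0831), Hmcn1 (hemicentin, 0.57 ± 0.12, adjusted p = 0.0721) and Pxdn (peroxidasin, which cross-links type IV collagen, 0.45 ± 0.10, adjusted p = 0.0995) had the next smallest p. Processing genes were at a median of 0.01, with 9 of 17 higher. Of the 14 ligands 8 were higher (median 0.07) and 1 passed: Vwf, von Willebrand factor of endothelium, was at 51.7, 83.6, 92.1 and 56.1 CPM (0.71 ± 0.11, adjusted p = 0.0387).

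Leukocyte integrins went the other way. Of 9 leukocyte and platelet integrins 6 passed, each lower in WT 2 and TG 1, and the median was -1.94. Itga4, the alpha 4 subunit of lymphocytes and monocytes, was at 20.2 CPM in WT 1, 4.86 in WT 2, 3.41 in TG 1 and 20.5 in TG 2 (-2.29 ± 0.21, adjusted p = 0.0111). Itgb2, the common beta chain of leukocyte integrins, was at 24.8, 7.16, 4.97 and 21.9 CPM (-1.94 ± 0.22, adjusted p = 0.0150), and Itgb7 (-2.84 ± 0.29) and Itgal (-1.88 ± 0.22) passed as well. The sign was thus negative for 8 of these 9 integrins and positive for 13 of the 17 that bind matrix.

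Cell type markers were summed to set beside these values. All 8 of 8 cardiomyocyte markers were detected in every library, with sums of 62390 CPM in WT 1, 71100 in WT 2, 80410 in TG 1 and 64490 in TG 2. The sums of WT 2 and TG 1 were thus the higher ones, mostly through Myh6 and Ryr2, with log2 ratios of 0.59 and 0.74. Myh6 alone was at 18350, 27240, 32090 and 21110 CPM in the same order. Myl2, Myl3, Tnnt2, Tnni3, Pln and Actc1 lay between -0.070 and 0.116. Of the 8 markers 6 had higher values in WT 2 and TG 1 (median log2 ratio 0.08, none passed). The 8 endothelial markers, none at 0, summed to 1028 CPM in WT 1, 1307 in WT 2, 1152 in TG 1 and 1085 in TG 2, and 5 of 8 were higher in WT 2 and TG 1 (median log2 ratio 0.14, none passed). The 8 fibroblast markers, none at 0, summed to 1784 to 1936 CPM, and 5 of 8 were higher in WT 2 and TG 1 (median log2 ratio 0.11, none passed). The 8 smooth muscle and pericyte markers, none at 0, summed to 2282 CPM in WT 1, 1599 in WT 2, 2623 in TG 1 and 2318 in TG 2. Rgs5 and Abcc9 made up most of these sums, while 6 of the 8 had higher values in WT 2 and TG 1 (median log2 ratio 0.24, none passed). Macrophage markers, 8 of 8 detected, summed to 486 CPM in WT 1, 199 in WT 2, 202 in TG 1 and 353 in TG 2. The sums of 8 lymphocyte markers, none at 0, were 24.2, 2.24, 1.21 and 25.4 CPM in the same order. Those of 6 atrial markers were 3712, 1233, 1572 and 4235 CPM, nearly all of it from Nppa, which the ventricle also expresses under load and which passed the crossed test (-1.60, adjusted p = 0.0224 in edgeR). Of the other atrial genes, Myl7 had 5, 1111, 0 and 3 counts, Myl4 19, 1182, 10 and 17, and Sln 0, 299, 0 and 1. Myl7, Myl4 and Sln were thus low except in WT 2. Nr2f2, at 7.59, 11.95, 15.78 and 10.41 CPM, was highest in TG 1 instead. Bmp10 had 3, 0, 7 and 3 counts. Erythroid markers summed to 718 CPM in WT 1 and 142 to 235 in the others. Most immune markers and Nppa thus moved with the split in which perlecan was called, in the opposite direction. Of the 8 macrophage markers 3 passed, each lower in WT 2 and TG 1, while Cd163 had the direction of perlecan (0.43). Of 6 tested lymphocyte markers 4 passed, each lower, and Cd79a and Ms4a1 were too low to be tested. Perlecan's direction was shared by 6 cardiomyocyte, 5 endothelial, 5 fibroblast and 6 smooth muscle and pericyte markers of 8 each. It was also the direction of 50.9% of all tested genes, and none of these markers passed. The atrial light chains Myl4 and Myl7 stood high in WT 2, the highest library of Col4a1 and Col4a2. The part of all these markers in the members' values was not tested, and the crossed value of Hspg2 without WT 2 is given above. In bulk tissue, fewer cells of a type and less RNA per cell cannot be told apart.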

How the data were processed

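Left ventricular RNA of 4 mice was sequenced, 1 library each, with the TruSeq Stranded Total RNA kit on a HiSeq2000, per the labels' protocols. The authors deposited raw read counts per Ensembl gene, along with normalized signal for these genes, which equalled the deposited counts divided by a factor of 0.917 to 1.08 per library and entered no test. Per the submitters' processing notes, STAR 2.3.0, HTSeq 0.6.1, DESeq, CASAVA 1.8.2 and FastQC 0.10.0 were used with build mm10. Whether the counting used strand, and on which annotation release, is not given in the sources used here, so reads of genes that overlap on opposite strands may not be told apart.

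Tests were run with edgeR 4.0.16 under R 4.3.3 (filterByExpr with a minimum count of 10, TMM factors of 0.934 to 1.06, quasi-likelihood test, Benjamini-Hochberg adjustment over 14189 genes, threshold 0.05). Log2 ratios within pairs use a prior count of 2. DESeq2 1.42.0, limma-voom (limma 3.58.1), other scalings, no filter, each library left out and a pair block were alternatives. The fitting scripts were tested on simulated data. Lengths came from GENCODE vM21, matched by Ensembl identifier. The 4 libraries held 14158440 to 16762713 counts.

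The members and lists were chosen with earlier results of these data known. Values in every library are given for members with a mean of at least 10 CPM, for any member called, and for the 3 members of smallest p in each direction in TG against WT. Other genes, apart from Yam1, were named from the lists: up to 4 called, otherwise the 2 of smallest p.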

Additional observations from a re-analysis of the deposited data

Results flagged for a closer look

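Hspg2, the perlecan gene, had a log2 ratio of 1.02 across the crossed split (WT 2 with TG 1, over WT 1 with TG 2), and passed the test of that difference (adjusted p = 0.0205 in the quasi-likelihood test of edgeR, adjusted by Benjamini-Hochberg). It was picked out because the pairs differed in opposite ways: TG was higher in the 35-week males (log2 ratio 1.16) and lower in the 19-week females (-0.89). No other member was picked out by this comparison.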

How the results depend on the processing

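Counts of calls depended on the tool and on single libraries. In TG against WT, DESeq2 called 3 genes, and leaving out each library in turn gave 0 to 8, the 8 without WT 1; 0 members were called in every setting run. A replicate block for the pair called 0 genes (61 below an unadjusted 0.05) and 0 members. Deviations of same-numbered libraries from their genotype means correlated at -0.449, and those of crossed libraries at 0.449. With 2 libraries per genotype these values mirror each other and restate the crossed split. They cannot show whether the replicate numbers, which share sex and age, pair the libraries. A block of the crossed pairing, chosen after seeing the data, called 0 genes (303 below an unadjusted 0.05) and 0 members. The value of Nid2 ranged from -0.014 (without TG 1) to 0.384 (without TG 2). Between males and females, no filter gave 7 genes, DESeq2 34, genotype as a second term 0, and leaving out each library 0 to 9, with 0 members throughout. In the crossed split, no filter gave 908 genes and 5 members (Hspg2, Lamc1, Lamb1, Lamb2 and Col4a4), DESeq2 703 genes and 4 members (without Col4a4), and leaving out each library 44 to 366 genes and 0 to 1 members, with 44 genes without WT 1, 110 without TG 2 and 0 members in both. The cause was not tested. Scaling by total counts in place of TMM moved the median crossed ratio of all genes from 0.005 to -0.17. The members' median then was 0.15, with 27 higher and 33 above the median of all genes, Hspg2 stood at 0.84 (adjusted p = 0.0299 by edgeR with Benjamini-Hochberg adjustment), and Col4a5, Ilk, Itga7, Itgb1bp2, Itgb8 and Lamb3 changed sign. Depth limits Lama1, Lamc3, Itga10, Itgb4 and Itga2, each with at most 57 counts in any library.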
